A study of Mus musculus with 2 samples.

Results

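The genes described here are 10 that act on collagen after its chains are made: the lysyl oxidases Lox, Loxl1, Loxl2 and Loxl3, the lysyl hydroxylases Plod1, Plod2 and Plod3, the prolyl 4-hydroxylase subunits P4ha1 and P4ha2, and the collagen chaperone Serpinh1. They were chosen by name from the 33757 rows of the deposited count table, and each of the 10 had a row.

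Collagen chains are modified while they fold in the endoplasmic reticulum. Prolyl 4-hydroxylases make the hydroxyproline that keeps the triple helix stable, lysyl hydroxylases make the hydroxylysine used for sugar attachment and crosslinks, and Serpinh1 (HSP47) binds the folded procollagen on its way out. After secretion, lysyl oxidases convert lysines of collagen and elastin to aldehydes that join neighbouring molecules, which gives a fibroblast's matrix its tensile strength.

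The cells were NIH3T3, a mouse embryonic fibroblast line, carrying a Venus reporter of the circadian gene Nr1d1 and an iRFP-tagged histone H2B (NIH3T3-Rev-VNP1-H2B-iRFP). All groups shared this line, its reporters and its culture, which was grown without synchronization to 95% confluency about 5 days after seeding, and whether the line is 1 clone is not given in the sources used here. Single cells were sorted by fluorescence into 2 plates of 384 wells, and full-length cDNA of each was sequenced (FLASH-seq). The comparison asks which genes differ along the reporter's range.

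The groups were 4 Venus bins, numbered here from 1 (dimmest) to 4 (brightest), each with 96 wells on each plate. Per the deposited cell annotations, plate 1 held cells of the high iRFP sort and plate 2 cells of the low sort, so plate and sort cannot be told apart. After filtering, 762 of 768 cells remained, 383 on plate 1 and 379 on plate 2, with 151173 to 1618022 counts per cell and medians of 835930 and 857229. No cell's counts were identical to those of another. The cells carried fibroblast transcripts: each of 10 fibroblast markers reached 1 CPM (counts scaled to a common library total), and the list summed to 19985 to 26545 CPM over the 8 sums per plate and bin. Epithelial markers summed to at most 7.43 CPM (Cdh1 alone reached 1 CPM), endothelial and immune markers to at most 0.868 and 0.831, and muscle and fat markers to at most 4.81 (Des alone reached 1 CPM).

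Of the 10 genes, 9 were read in at least 99.5% of the cells of each plate and Loxl2 in about 5% of them. On the scale of CPM per kilobase of exon, Serpinh1 was the most abundant at a mean of 396 over the 8 sums (range 373 to 424), and Lox, the namesake of the lysyl oxidases, was second at 172 (142 to 214). These ranges did not overlap each other or those of the other genes. Then came Plod3 at 48.3, P4ha1 at 41.0, Loxl1 at 35.4 and Plod1 at 25.8 CPM per kilobase, where each gene's range overlapped that of the next in order. Plod2 at 19.1, P4ha2 at 16.4 and Loxl3 at 15.6 formed a lower group, again with overlapping ranges between neighbours, and the range of Plod2 (17.5 to 20.5) lay below that of Plod1 (22.4 to 29.6). Exon lengths came from a GRCm38 annotation, a build older than the one the counts used.

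Loxl2, a lysyl oxidase with scavenger receptor domains, had 59 counts on plate 1 and 62 on plate 2, read in 18 of 383 and 19 of 379 cells. Its level was 0.184 CPM on plate 1 (95% exact Poisson interval 0.140 to 0.237) and 0.193 CPM on plate 2 (0.148 to 0.247). These intervals, like the others given here, cover counting error only, and single cells held up to 11 of the counts. Along the bins its sums were 0.399, 0.257, 0.0852 and 0.0258 CPM on plate 1 and 0.211, 0.128, 0.240 and 0.170 CPM on plate 2. The plate 1 sums stood highest in bin 1 and the plate 2 sums followed no order, and the trend was -0.55 ± 0.31 (SE) log2 per bin (edgeR quasi-likelihood adjusted p = 0.290).

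The lysyl oxidases Lox and Loxl1 were lower in cells with a bright reporter. On the CPM scale of the fit, Lox had 1024, 841, 677 and 736 in bins 1 to 4 of plate 1, and 887, 966, 680 and 751 in bins 1 to 4 of plate 2. On both plates bins 1 and 2 were high and bins 3 and 4 low, with no overlap between the 4 sums of bins 1 and 2 and the 4 of bins 3 and 4, and bin 3 was the lowest. This split was read from the values, and the share of all genes that show it was not counted. Averaged over the plates, Lox stood at 955 ± 96.5 CPM in the dimmest bin and 744 ± 10.8 CPM in the brightest (SD, n = 2). Lox fell by 0.15 ± 0.03 (SE) log2 per bin (edgeR quasi-likelihood test, adjusted p = 0.0106), with -0.17 on plate 1 and -0.12 on plate 2. That fitted slope amounts to a drop of 26.5% over the 3 steps, while the average of bin 4 was 0.778 of that of bin 1.

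Loxl1, which is known for its part in elastic fibre assembly, had 136, 139, 123 and 84.3 CPM in bins 1 to 4 of plate 1 and 125, 142, 93.4 and 91.3 CPM in those of plate 2. Bin 2 was highest and bin 4 lowest on both plates. The sums of bins 1 and 2 again did not overlap those of bins 3 and 4, with the same limit as for Lox. Its plate averages were 130 ± 7.82 CPM in the dimmest bin and 87.8 ± 4.98 CPM in the brightest (SD, n = 2). Loxl1 fell by 0.21 ± 0.03 (SE) log2 per bin (edgeR quasi-likelihood adjusted p = 0.00942), with -0.22 and -0.20 on the plates. Its fitted slope amounts to 35.0% over the 3 steps, while the average of bin 4 was 0.673 of that of bin 1. A test for any difference among the 4 bins called the same pair, with adjusted p = 0.0275 for Lox and 0.0307 for Loxl1 (edgeR quasi-likelihood test), where 8.37% of all genes passed.

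**Figure D1:**
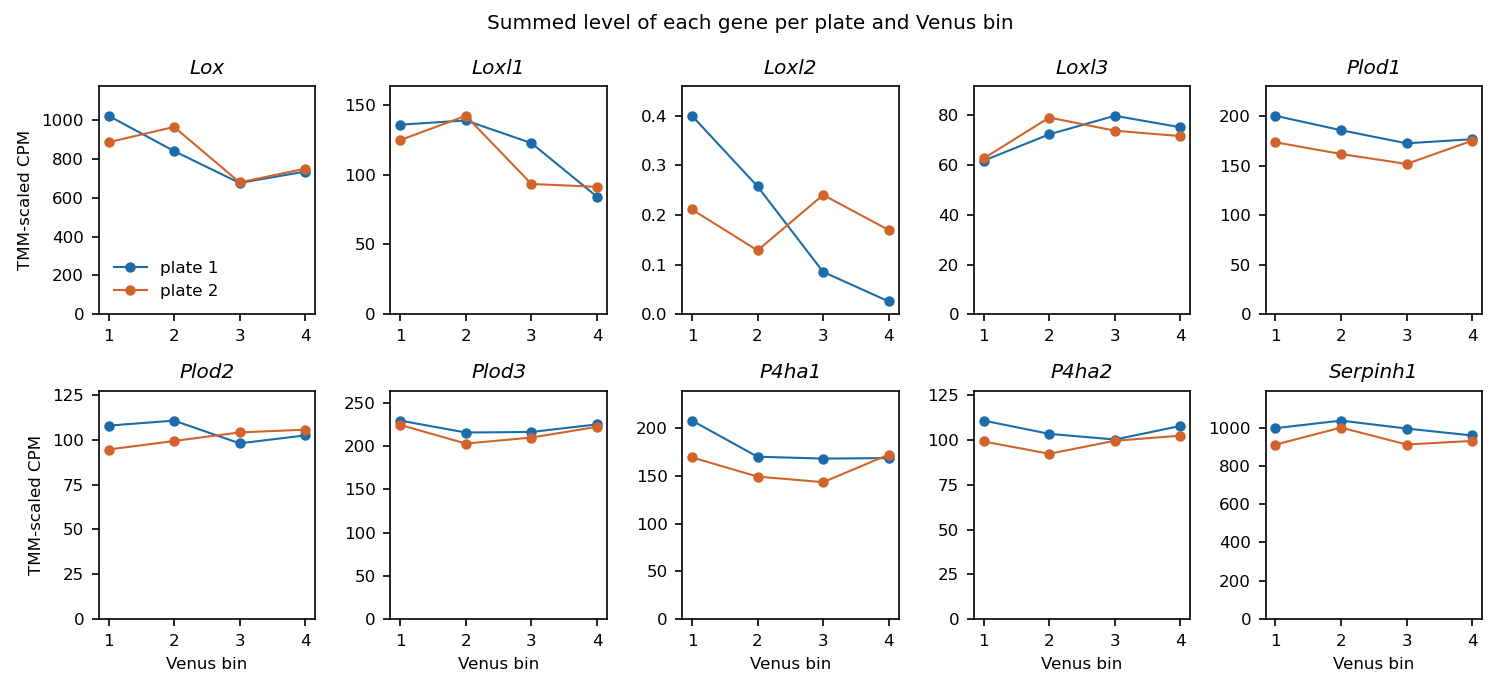
Summed level of each of the 10 genes (TMM-scaled CPM, vertical axis from 0) in Venus bins 1 to 4 (horizontal axis), one point per plate and bin, plate 1 in blue and plate 2 in orange. Lox and Loxl1 sit lower in bins 3 and 4 than in bins 1 and 2 on both plates, and Loxl2 stays at or under 0.399 CPM.

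Of the 10 genes, 2 passed the trend test, both lower toward bright Venus, and 0 passed in the other direction. Over all 18430 genes tested, 15.4% passed, 8.64% lower and 6.78% higher, so 2 of 10 is near the share over all genes. The median trend of the 10 was -0.02 log2 per bin, against 0.00 for all genes tested. The fall of Lox missed the threshold in a model with the bin as a number (adjusted p = 0.0530), and without bin 4 neither gene passed (adjusted p = 0.0529 for Lox, at -0.25 log2 per bin, and 0.20 for Loxl1, at -0.14). The 2 plates are the replicates, and nothing in the labels says that they came from separate cultures. The fit takes out each plate's own level, so the p-values rest on how far the bins' pattern differed between these plates. The plates were also different iRFP sorts.

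Cell cycle genes were read beside these falls. Among S phase genes, 13 of 43 rose and 0 fell, where 6.78% of all genes rose and 8.64% fell. The rise was led by Mcm5 (0.48 log2 per bin), Gins2 (0.41) and Chaf1b (0.39). The S phase list summed to 644, 674, 794 and 943 CPM in bins 1 to 4 of plate 1 and to 702, 848, 763 and 894 CPM in those of plate 2. Among G2/M genes, 7 of 54 rose, led by Nusap1 (0.57), Aurkb (0.53) and Ube2c (0.41), and 2 fell, Cks1b (-0.16) and Jpt1 (-0.12). The 9 of 54 called are near the 15.4% over all genes. The G2/M list summed to 1659, 1794, 1840 and 2430 CPM in bins 1 to 4 of plate 1 and to 2326, 2473, 1671 and 2485 CPM in those of plate 2, with no steady order on plate 2, and its median trend was 0.21 log2 per bin on plate 1 and -0.04 on plate 2. Within bins, Lox correlated across cells with the summed S phase genes at -0.19 on plate 1 and -0.21 on plate 2, and Loxl1 at -0.22 and -0.19. With the summed G2/M genes, Lox was at -0.15 and -0.31 and Loxl1 at -0.25 and -0.32. In the 118 and 130 cells that were under their plate's median for both lists, Lox fell by 0.12 log2 per bin and Loxl1 by 0.27 (edgeR quasi-likelihood adjusted p = 0.0420 and 0.0302). A bin's cells sat together in neighbouring columns of wells, the same on either plate, so position and bin cannot be told apart. Within bins, the correlation with the column number was -0.05 and -0.02 for Lox and 0.04 and 0.04 for Loxl1.

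Loxl3, a lysyl oxidase that shares the scavenger receptor domains of Loxl2, was lowest in the dimmest bin. It had 61.7, 72.3, 79.8 and 75.2 CPM in bins 1 to 4 of plate 1 and 62.7, 79.1, 73.8 and 71.6 CPM in those of plate 2. Bin 1 was the lowest on both plates and did not overlap the other bins, which lay close together. The share of all genes with such a gap was not counted. The trend of 0.08 ± 0.02 (SE) log2 per bin missed the threshold (edgeR quasi-likelihood adjusted p = 0.0650). It passed with DESeq2 (0.0177), limma (0.0350), library totals in place of TMM (0.0468) or bin 2 left out (0.0428), and was -0.02 without bin 1. The exons of Loxl3 overlap those of Htra2 on the opposite strand in the GRCm38 annotation. Use of strand in the counting is not given in the sources used here, so the counts of this pair are uncertain. Htra2 had 26624 counts against 46332 for Loxl3, more beside the gene's own counts than the partners of Plod3, Plod2 and Lox given below.

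None of the 5 hydroxylase genes passed the trend test. Plod1, the lysyl hydroxylase of helical lysines, had 200, 186, 173 and 177 CPM in bins 1 to 4 of plate 1 and 174, 162, 152 and 175 CPM in those of plate 2. Bin 3 was the lowest on both plates, and the trend was -0.03 ± 0.02 (SE) log2 per bin (edgeR quasi-likelihood adjusted p = 0.307). P4ha1, a catalytic subunit of prolyl 4-hydroxylase, had 208, 170, 168 and 169 CPM on plate 1 and 169, 149, 144 and 172 CPM on plate 2. Bin 1 of plate 1 stood above the other 7 sums, and the trend was -0.04 ± 0.02 (adjusted p = 0.291), with -0.09 on plate 1 and 0.00 on plate 2.

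Plod2, which hydroxylates the lysines of the collagen telopeptides, ranged over the 8 sums from 94.5 to 111 CPM. Plod3, which also has glucosyltransferase activity, ranged from 203 to 229, and P4ha2, another catalytic prolyl 4-hydroxylase subunit, from 92.3 to 111. The trends of Plod2, Plod3 and P4ha2 were 0.01 ± 0.02, -0.00 ± 0.01 and 0.01 ± 0.02 (SE) log2 per bin (edgeR quasi-likelihood adjusted p = 0.865, 0.949 and 0.885). Serpinh1 had 997, 1037, 995 and 959 CPM in bins 1 to 4 of plate 1 and 911, 1000, 912 and 931 CPM in those of plate 2, at -0.01 ± 0.01 log2 per bin (adjusted p = 0.610). Bin 2 was its highest on both plates and did not overlap the other bins, which overlapped each other. The gap was narrow, from 1000 CPM in bin 2 of plate 2 to 997 CPM in bin 1 of plate 1. How many of all genes show such a gap was not counted. The trend tests of these genes did not separate the bins, which does not show that the levels were equal. The exons of Plod3 overlap those of Znhit1 on the opposite strand, those of Plod2 overlap Gm38391 and those of Lox overlap AC161119.1, with the same limit on the counts as for Loxl3. Counts of the partner were 24986 against 139980 for Plod3, 5053 against 66006 for Plod2 and 16991 against 523780 for Lox.

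Many substrates of these enzymes also fell along the reporter. Of 16 collagen and elastic fibre genes, 10 fell and 0 rose, with a median of -0.12 log2 per bin. Over all genes tested, 8.64% fell and 6.78% rose. Of the 5253 genes whose mean log2 CPM was 5 or more, 904 fell and 678 rose. Eln, the elastin that Lox and Loxl1 crosslink, fell by 0.26 ± 0.05 (SE) log2 per bin, with plate averages of 44.5 ± 16.8 CPM in bin 1 and 29.0 ± 12 CPM in bin 4 (SD, n = 2; edgeR quasi-likelihood adjusted p = 0.0112). Col5a2, a chain of the fibril-forming collagen V, fell by 0.24 ± 0.02, from 1132 ± 149 to 698 ± 20.7 CPM (adjusted p = 0.00159), and Fbn1, the microfibril protein fibrillin-1, by 0.22 ± 0.03, from 177 ± 41.6 to 112 ± 8.92 CPM (adjusted p = 0.00733). The summed fibroblast markers, of which Col1a1, Col1a2 and Col3a1 are also in the substrate list, were lowest in bin 4 on both plates.

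Of 20 other genes of collagen modification and processing that could be tested, 5 fell and 2 rose, with a median of -0.03 log2 per bin. Among all 5253 genes whose mean log2 CPM was 5 or more, 904 fell and 678 rose, so the list's count is close to that of abundant genes. Those that fell furthest were Bmp1, the procollagen C-proteinase that also activates pro-Lox, by 0.23 ± 0.03 (SE) log2 per bin, Creb3l1, a transcription factor of collagen-secreting cells, by 0.21 ± 0.04, and Adamts2, the procollagen N-proteinase, by 0.19 ± 0.03 (edgeR quasi-likelihood adjusted p = 0.00258, 0.0211 and 0.00528). Crtap, a partner of prolyl 3-hydroxylase, rose by 0.11 ± 0.03, and Sparc, a secreted collagen-binding protein, by 0.08 ± 0.01 (adjusted p = 0.0310 and 0.00470). Genes that act outside the cell or on the chain ends, such as Bmp1 and Adamts2, and genes of the endoplasmic reticulum, such as Crtap, were both among those called.

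**Figure D2:**
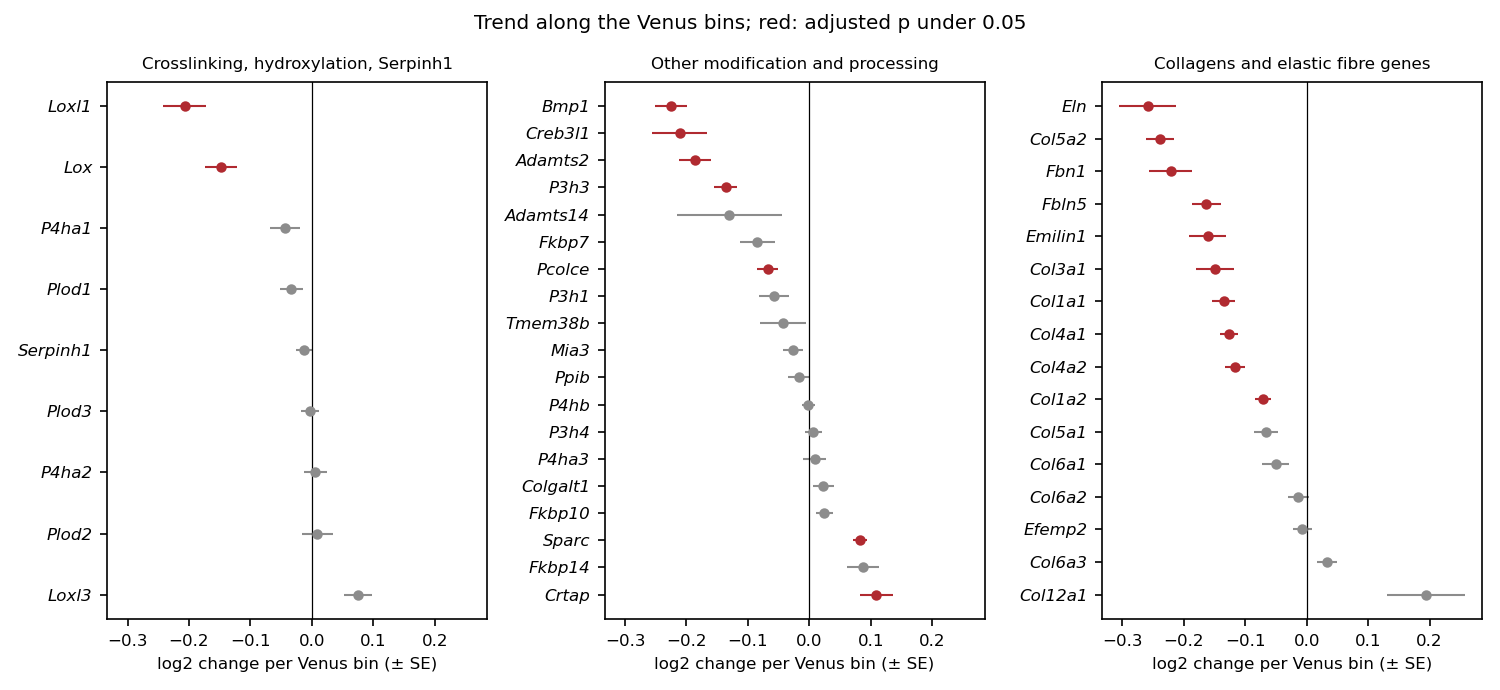
Change per Venus bin (log2, points, with SE as bars) of the enzymes, of other collagen modification genes and of collagen and elastic fibre genes with a mean of at least 1 CPM in bins 1 and 4, with red for an adjusted p under 0.05. Lox and Loxl1 are the red points of the left panel, at -0.15 and -0.21, and 10 of 16 genes are red in the right panel.

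Regulators known to act on these enzymes were read through lists of their targets. Of 19 hypoxia targets, 6 rose and 1 fell (median 0.06 log2 per bin), where 6.78% of all genes rose and 8.64% fell. The shares were larger among the 5253 abundant genes, of which 678 rose and 904 fell. Pfkfb3, a glycolytic regulator, rose by 0.38 ± 0.08 (SE), Ndrg1 by 0.16 ± 0.02 and the glucose transporter Slc2a1 by 0.16 ± 0.02, and the mitophagy receptor Bnip3l fell by 0.15 ± 0.02 (edgeR quasi-likelihood adjusted p = 0.0200, 0.00597, 0.00593 and 0.00648). Lox, Plod2 and P4ha1 are commonly listed among hypoxia-induced genes, and here they were at -0.15, 0.01 and -0.04 log2 per bin. Of 12 TGF-beta targets, 5 fell and 1 rose (median -0.11), beside the same shares over all genes and over abundant genes. Ccn2, a matricellular growth factor, fell by 0.36 ± 0.06, the latent TGF-beta binding protein Ltbp2 by 0.32 ± 0.05 and Pmepa1 by 0.26 ± 0.04, while Bhlhe40 rose by 0.22 ± 0.02 (adjusted p = 0.00780, 0.00888, 0.00933 and 0.00202). Of 13 heat shock and endoplasmic reticulum chaperones, the class to which Serpinh1 belongs, 2 rose, Hsp90aa1 (0.15) and Pdia6 (0.06), and 3 fell, Hspa8 (-0.09), Pdia4 (-0.09) and Hspa5 (-0.06). Of the 5253 abundant genes 904 fell and 678 rose, so the chaperone count is close to that of abundant genes.

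Between the plates, which carried the 2 iRFP sorts, the genes differed little. The iRFP transcript itself was 2.21 times as high on plate 1 as on plate 2. The largest ratio among the 9 abundant genes was that of P4ha1, 1.08 (95% exact binomial interval 1.06 to 1.09), and the smallest that of Lox, 0.955 (0.950 to 0.961). Each of the 9 lay between -0.07 and 0.11 on the log2 scale, inside the 5th to 95th percentile of those 5253 abundant genes (-0.23 to 0.12). Each sort was 1 plate, so there is no test.

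Single cells of a bin differed far more than the bins did. Over the cells of all bins, Lox ran from 162 CPM at the 10th percentile to 1579 at the 90th on plate 1, and from 178 to 1626 on plate 2. The 38 cells with the most Lox on plate 1 held 26.0% of its summed CPM and the 38 with the least held 1.14%. Its median coefficient of variation within bins was 0.712, against a median of 0.293 for the 108 genes within 0.5 log2 CPM of its level. Bins accounted for 4.80% of the variance of Lox among cells on plate 1 and 2.15% on plate 2.

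Plod2 and Loxl1 were nearly as uneven. Their coefficients of variation were 0.678 and 0.618, against medians of 0.389 and 0.377 for genes of similar level. For Loxl3 it was 0.582, for Plod1 0.448, for P4ha2 0.446, for P4ha1 0.422 and for Plod3 0.360. Serpinh1 was the most even of the 9 at 0.321, against 0.275 for its level, with 578 to 1384 CPM between the 10th and 90th percentiles of plate 1. These values include counting and amplification error. Bins accounted for 8.49% and 9.29% of the variance of Loxl1 and for at most 3.23% of that of each of the other 7 genes.

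**Figure D3:**
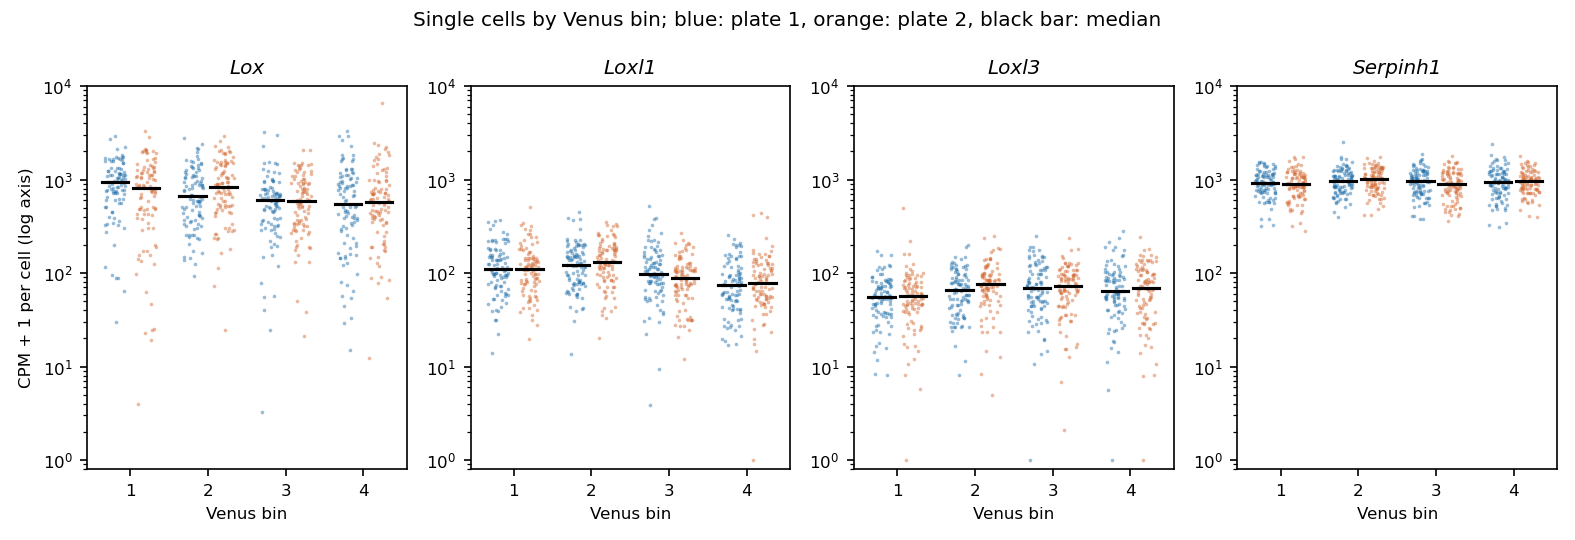
Level per cell (CPM + 1, log axis) of Lox, Loxl1, Loxl3 and Serpinh1 by Venus bin, one point per cell, plate 1 in blue and plate 2 in orange, with black bars at the medians. Lox cells spread widely in every bin (10th to 90th percentile 162 to 1579 CPM over all bins of plate 1), and Serpinh1 cells lie close to their median.

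The genes varied together across cells in 2 patterns. Spearman correlations were taken over the cells of a plate on log2(CPM + 1), ranked within Venus bins, and are given as descriptions: the cells of a plate share their culture, and CPM values share each cell's total. Over 36 pairs of the 9 abundant genes the median was 0.21 on plate 1 and 0.23 on plate 2. Among the 10 pairs of hydroxylases the medians were 0.30 and 0.34, led by Plod1 with P4ha2 (0.42 and 0.41), Plod1 with P4ha1 (0.31 and 0.47) and Plod3 with P4ha1 (0.35 and 0.40). Lox went with Loxl1 (0.35 and 0.39), Serpinh1 (0.39 and 0.40) and Plod2 (0.29 and 0.35), and Loxl1 with Plod2 (0.36 and 0.33). Oxidases with hydroxylases were more loosely tied than hydroxylases with each other, at a median of 0.15 and 0.07 over 15 pairs. The 3 pairs of oxidases had medians of 0.20 and 0.13. Both of these sets include the low pairs of Loxl3. Plod2 was closer to Lox and Loxl1 than to P4ha2 (0.14 and 0.09). Serpinh1 correlated at 0.19 or more with each gene but Loxl3 on both plates. Loxl3 stood apart, with medians of 0.07 and -0.01 over its 8 pairs, the highest being with Loxl1 (0.20 and 0.13).

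**Figure D4:**
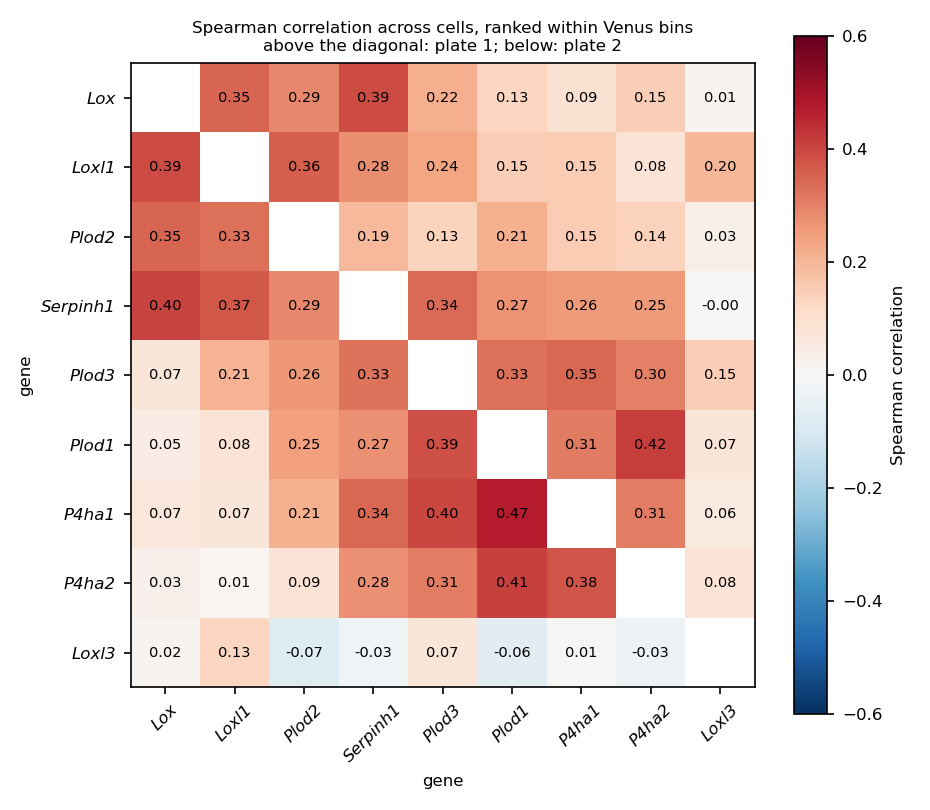
Spearman correlation across cells, ranked within Venus bins, for each pair of the 9 abundant genes (both axes), plate 1 above the diagonal and plate 2 below. Plod1, Plod3, P4ha1 and P4ha2 form a block of 0.30 to 0.47, and the Loxl3 row and column run from -0.07 to 0.20.

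The sequences before the start sites are shown for the 4 hydroxylase genes of that block, since these moved together from cell to cell. RefSeq start regions (GRCm38.p6) were found for 5 of the 10 genes, these 4 and Serpinh1. Each line gives the 250 bases before the start, 5′ to 3′ along the gene, from chr4:147936777-147937026 (minus strand), chr5:136986769-136987018 (plus strand), chr10:59323046-59323295 (plus strand) and chr11:54100674-54100923 (plus strand) in this order. Capitals mark matches, on either strand, to GGGCGG, a GC box, to the box CCAAT, and to the cores of hypoxia response elements, which read ACGTG or, in the other form, GCGTG.
Plod1: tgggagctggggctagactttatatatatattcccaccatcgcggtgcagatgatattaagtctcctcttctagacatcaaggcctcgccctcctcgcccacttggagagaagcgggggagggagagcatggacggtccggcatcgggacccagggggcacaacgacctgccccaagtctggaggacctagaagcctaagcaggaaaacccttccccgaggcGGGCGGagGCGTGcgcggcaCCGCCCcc
Plod3: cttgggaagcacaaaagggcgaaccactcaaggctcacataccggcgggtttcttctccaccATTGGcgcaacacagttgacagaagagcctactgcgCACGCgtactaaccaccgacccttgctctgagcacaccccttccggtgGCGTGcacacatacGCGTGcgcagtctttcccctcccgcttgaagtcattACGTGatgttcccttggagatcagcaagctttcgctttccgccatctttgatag
P4ha1: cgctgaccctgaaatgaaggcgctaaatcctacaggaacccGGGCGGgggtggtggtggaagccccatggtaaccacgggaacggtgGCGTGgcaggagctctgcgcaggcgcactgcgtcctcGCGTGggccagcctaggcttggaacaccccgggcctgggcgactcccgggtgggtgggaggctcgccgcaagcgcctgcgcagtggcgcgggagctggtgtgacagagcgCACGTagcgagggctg
P4ha2: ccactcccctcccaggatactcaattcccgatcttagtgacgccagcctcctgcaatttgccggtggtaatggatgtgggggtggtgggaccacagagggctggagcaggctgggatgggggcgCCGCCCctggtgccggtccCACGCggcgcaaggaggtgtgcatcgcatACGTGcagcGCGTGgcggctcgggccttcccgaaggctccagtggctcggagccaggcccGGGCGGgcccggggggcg

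Each of the 4 held GCGTG, with 1 match for Plod1, 3 for Plod3, 2 for P4ha1 and 2 for P4ha2, and 28.2% of 32851 promoters of the same length hold it. Plod3, P4ha1 and P4ha2 each held 1 ACGTG (16.6% of promoters). GGGCGG occurred in Plod1, P4ha1 and P4ha2 (32.7% of promoters) and CCAAT in Plod3 (33.8%). An E-box CACGTG, a D-box TTATGTAA and a heat shock unit GAANNTTC were also searched on both strands and did not occur in the windows of these 4 or of Serpinh1 (6.02%, 0.819% and 6.69% of promoters). ACGTG lies within CACGTG, so these searches overlap. The windows were rich in G and C, at 55.6% to 70.0% against a median of 52.4%, and the matches are descriptions of these letters.

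Outside the 10, the genes most like each were read from 5226 genes. Lox was most like Col5a2 (0.55 on plate 1 and 0.61 on plate 2), Cald1, an actin-binding protein (0.51 and 0.58), and the proteoglycan Ogn (0.50 and 0.57). Loxl1 was most like the secreted glycoprotein Fstl1 (0.65 and 0.63), the interleukin-11 receptor Il11ra1 (0.60 and 0.56) and the proteoglycan Bgn (0.56 and 0.49). Plod2 was most like the gelatinase Mmp2 (0.52 and 0.49), Bmf (0.49 and 0.44) and Emilin1 (0.46 and 0.44). The nearest genes of Lox and Plod2 thus included matrix proteins and a matrix protease.

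The genes of the hydroxylase block shared some of their nearest genes, Fkbp10, Erp29 and Fam114a1. This was not particular to the block, since Serpinh1 was also close to Fkbp10 (0.53 and 0.51) and Fam114a1 (0.46 and 0.55). Plod1 was most like Fkbp10, a prolyl isomerase that assists collagen folding (0.35 and 0.42), Erp29 (0.32 and 0.45) and Ddost, a subunit of the glycosylation enzyme (0.37 and 0.39). P4ha2 was most like Fkbp10 (0.45 and 0.41), Fam114a1 (0.42 and 0.36) and P3h4, a partner of lysyl hydroxylase (0.39 and 0.33), and Plod3 like Erp29 (0.50 and 0.55), Pcolce (0.46 and 0.50) and Fam114a1 (0.44 and 0.47). Serpinh1 was most like Kdelr2, a receptor that returns chaperones to the endoplasmic reticulum (0.62 and 0.52), Col1a1 (0.52 and 0.56) and Pycr1, an enzyme of proline synthesis (0.57 and 0.50). P4ha1 was most like Snx3 (0.32 and 0.50), Fam114a1 (0.33 and 0.46) and Cd164 (0.31 and 0.45). The closest genes to Loxl3 reached less: Cdk14 (0.31 and 0.26), Ldhb (0.29 and 0.27) and Svep1 (0.28 and 0.27).

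Position in the genome was shared within some of these sets. Chromosome membership was read from RefSeq GRCm38.p6, after the correlations had been seen. For Plod3, the median correlation with 355 genes of its chromosome was 0.13 on plate 1 and 0.19 on plate 2, against -0.00 and 0.01 with genes of other chromosomes, and 0.16 and 0.24 with its 20 nearest genes by position. Of the 20 genes most like Plod3, 9 were on its chromosome, Erp29, Pcolce and Fam114a1 among them, and that chromosome holds 6.90% of the genes compared. Plod1 had medians of 0.11 and 0.14 with its chromosome against 0.02 and 0.02 with the others, and 7 of its top 20 genes were on it. For Loxl3 and P4ha1 7 of the top 20 were on the same chromosome, for P4ha2 6, for Serpinh1 3, for Plod2 2 and for Lox and Loxl1 0. The chromosomes of Loxl3, P4ha1, P4ha2, Serpinh1 and Plod2 hold 5.04%, 5.58%, 9.22%, 6.01% and 5.15% of the genes compared. The own-chromosome median of Plod3 and of Loxl3 lay above that of 100% of 19 other chromosomes on both plates. For P4ha1 this was 68.4% and 63.2%, and for P4ha2 73.7% and 78.9%. With the summed CPM of its own chromosome, Plod3 correlated at 0.46 and 0.58, Plod1 at 0.29 and 0.34, Loxl3 at 0.29 and 0.19 and P4ha2 at 0.27 and 0.28, while P4ha1 was at 0.11 and 0.07, Serpinh1 at -0.01 and -0.02, Lox at -0.03 and -0.11, Loxl1 at -0.09 and -0.00 and Plod2 at -0.18 and -0.05. Correlations with the sums of other chromosomes were not taken, so what position adds to these values was not tested.

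**Figure D5:**
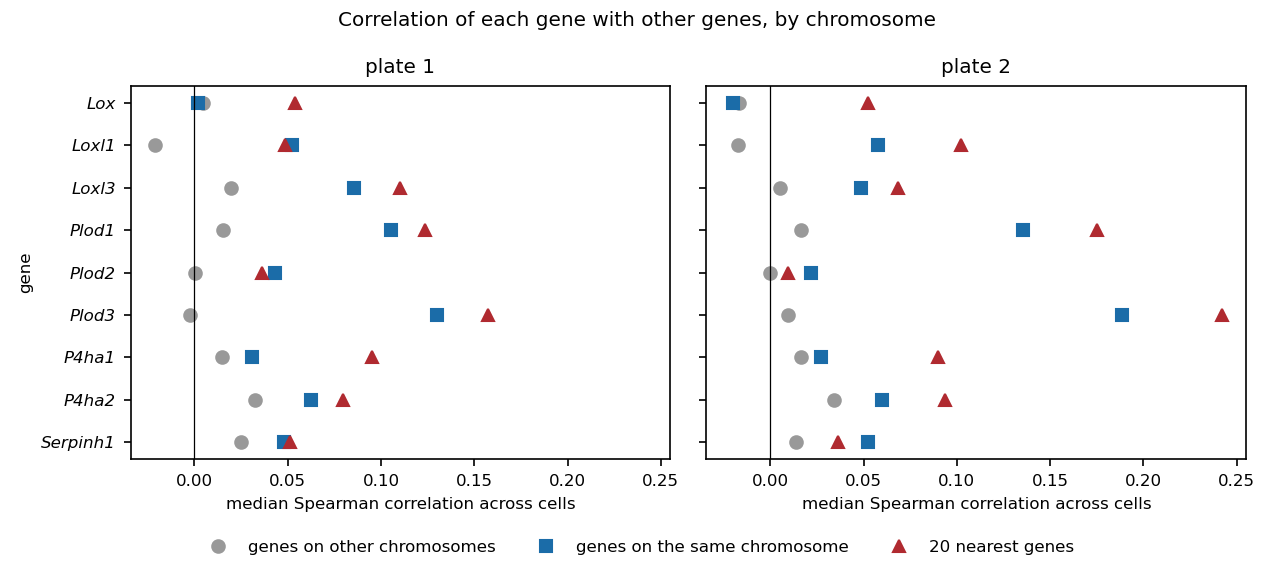
Median Spearman correlation across cells (horizontal axis) of each of 9 genes (vertical axis) with genes on other chromosomes (grey circles), on the same chromosome (blue squares) and with the 20 nearest genes (red triangles), by plate. Plod3 shows the widest gap, at 0.13 and 0.19 with its own chromosome against -0.00 and 0.01 with the others.

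The summed level of each list was compared with the genes in the same way. The summed substrates correlated with Serpinh1 at 0.51 and 0.50, Lox at 0.46 and 0.50 and Loxl1 at 0.43 and 0.52. Plod2 was at 0.32 and 0.44, Plod3 at 0.38 and 0.36 and Plod1 at 0.34 and 0.31. P4ha1 was at 0.22 and 0.25, P4ha2 at 0.24 and 0.16 and Loxl3 at 0.14 and 0.09. Medians over the 15 substrates abundant enough to compare were 0.35 and 0.38 for Lox. They were 0.25 and 0.30 for Loxl1, 0.23 and 0.29 for Plod2 and 0.19 and 0.22 for Serpinh1. The summed hypoxia targets correlated with Loxl1 at -0.36 and -0.31, with Plod2 at -0.35 and -0.31 and with Lox at -0.13 and -0.21. The sign was the other way for P4ha1 (0.16 and 0.24), P4ha2 (0.09 and 0.12) and Plod1 (0.02 and 0.18). Plod3 (-0.04 and -0.07), Loxl3 (0.04 and 0.00) and Serpinh1 (-0.02 and 0.00) were near 0. Medians over the 10 genes of that list abundant enough to compare were -0.09 and -0.05 for Loxl1 and -0.10 and -0.07 for Plod2. With each of Loxl1 and Plod2, 3 of the 10 were at -0.2 or lower on both plates. The summed chaperones correlated with Serpinh1 at 0.44 and 0.40. Of their 11 abundant genes 7 reached 0.2 on both plates, such as Hspa5 of the endoplasmic reticulum (0.51 and 0.46), while the heat shock protein Hspa8 was at -0.05 and -0.07; both examples were chosen after their values were seen. Counts per cell correlated with each of the 9 genes at no more than 0.12 in size, and Venus fluorescence within bins at no more than 0.14. Other cell measures went further. Mitochondrial share was at 0.23 and 0.22 with Loxl1, -0.15 and -0.27 with P4ha2 and -0.24 and -0.13 with Serpinh1. For the other genes it lay between -0.14 and 0.18. Side scatter reached 0.20 (Loxl1, plate 2) and forward scatter 0.19 (P4ha1, plate 2).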

How the data were processed

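The authors deposited a table of raw counts per gene and cell, with a table of sorting values (fluorescence intensity and gate) per cell. Per the submitters' processing notes, the tools were STAR 2.7.11a, SAMtools, bedtools and HTSeq, and the builds GRCm39 and mm39; strand use and molecular identifiers are not given in the sources used here. Symbols were matched for 24902 of 33757 features, and features without one held 1.10% of counts. Cells needed 1000 genes, 0.1 of their plate's median total and at most 25% mitochondrial counts; wells were sorted as single cells and no doublet caller was run.

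Counts were summed over the cells of each plate and bin, since cells are not replicates. The 8 sums were fitted with edgeR 4.0.16 (TMM, filterByExpr, quasi-likelihood F-test; 4 bins and plate as block, 3 residual degrees of freedom), with a linear contrast over the bins and Benjamini-Hochberg adjustment over 18430 genes. The fit was tested on simulated data. Alternatives used limma 3.58.1, DESeq2 1.42.0, other filters and scalings, cells thinned to 400000 counts, and bins or plates left out. Exon lengths and start regions came from GRCm38 references. The plates share the bins' layout and are paired by the plate term, which is the plate named in the labels.

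The genes and lists were chosen with earlier results of these data known. The text names the 10 genes, up to 3 called genes per direction of each list and the 3 genes most correlated with each gene (at least 0.2 on each plate, mean log2 CPM of at least 5).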

Additional observations from a re-analysis of the deposited data

Results flagged for a closer look

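For 4 of the genes the plates gave trends of opposite sign. The differences, plate 1 minus plate 2 on the log2 per bin scale, were -0.0946 for Plod2 (-0.04 and 0.05), -0.0938 for P4ha1 (-0.09 and 0.00), -0.0411 for P4ha2 (-0.02 and 0.02) and -0.00849 for Plod3 (-0.01 and 0.00). Each plate was 1 sample, so these differences were not tested.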

How the results depend on the processing

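The fall of Lox kept its direction under all 16 alternatives with a test (-0.25 to -0.12 log2 per bin) and passed in 14; it was -0.15 (edgeR adjusted p = 0.0530) with the bin as a number and -0.25 (0.0529) without bin 4. The fall of Loxl1 passed in 15 of 16 (-0.34 to -0.14), the exception being without bin 4 (-0.14, adjusted p = 0.20). Loxl3 passed in 4: DESeq2 (0.08), limma (0.09), library totals (0.09) and without bin 2 (0.09). The count of the 10 genes called went from 2 to 1 with the bin as a number and to 0 without bin 4, and was 3 in the alternatives that called Loxl3. With no replicate block (the plate term left out) Lox and Loxl1 still passed, 1683 genes of all were called in place of 2843, and the test for any difference among bins called 1 of the 10 in place of 2. The count over all genes was also 1858 with the bin as a number, 413 in cells low in cycle genes, 1139 without bin 1 and 358 without bin 4. Of the calls, 44.0% were higher with TMM, 57.8% with library totals, 57.6% with limma and 54.2% in cells low in cycle genes. The median pair correlation over both plates was 0.218, and 0.199 in cells low in cycle genes. With 1 plate left out, a value with no test, Lox was at -0.17 to -0.12 and Loxl1 at -0.22 to -0.20 log2 per bin. One alternative, the cells kept for thinning without thinning, was chosen after seeing the data and called 2816 genes and the same 2 of the 10. Loxl2 had 121 counts in all, so its trend has the widest error of the 10 genes (0.31 log2 per bin).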
